A study of Homo sapiens with 16 samples.

Results

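The genes examined here encode the enzymes that set and remove the 2 histone marks measured in the study: the H3K27 demethylases KDM6B and KDM6A, the H3K4 methyltransferases KMT2A, KMT2B, KMT2C, KMT2D and SETD1A, and the H3K4 demethylases KDM1A, KDM5A and KDM5B. They were chosen by name, as 10 of 19794 protein-coding genes, and each was measured over its GENCODE body on hg19 with 5 kb added on each side. Trimethylated H3K27 (H3K27me3) and monomethylated H3K4 (H3K4me1) were profiled by CUT&Tag, in which an antibody-tethered transposase cuts the DNA next to the mark, in BE2C cells, a MYCN-amplified neuroblastoma line. All cells were harvested after 72 h. In the knockdown experiment they received siKDM6B33, a single siRNA against KDM6B, or the control siRNA siCtrl. In the compound experiment they received 2.5 µM GSK-J4 or 0.1% DMSO. GSK-J4 is a cell-permeable ester that cells convert to GSK-J1, an inhibitor of KDM6B and KDM6A. The paper reports that GSK-J1 also acted to some degree on purified KDM5A, the product of a gene listed here. Each mark and arm had 2 libraries, which gave 16 libraries in 8 groups. No RNA was measured in these libraries, so the level of KDM6B itself was not checked here. KMT2A lay inside a stretch of chromosome 11 (118231820 to 118658800, 427 kb) with no entry in any of the 32 deposited lists. It was 1 of 1206 genes wholly inside such stretches of at least 100 kb, which were not analysed here, and it should not be read as unmarked. This left 9 enzyme genes among 18588 genes tested.

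As background, H3K27me3 is laid down by Polycomb repressive complexes at silent genes, and KDM6B and KDM6A remove it. H3K4me1 flanks active promoters and marks enhancers. KMT2C and KMT2D place most of it at enhancers, with KDM6A as a subunit of their complexes, while SETD1A, KMT2A and KMT2B act mainly at promoters and CpG islands. KDM1A removes mono- and dimethyl groups from H3K4, and KDM5A and KDM5B remove di- and trimethyl groups.

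The libraries differed in how much of the genome they marked. H3K4me1 islands, the broad enriched domains called by SICER, covered 98.6 and 103 Mb in the siCtrl libraries and 114 and 115 Mb in the siKDM6B33 libraries, against 68.0 to 77.7 Mb in the compound experiment. An H3K4me1 island touched the start (within 1 kb) of 26.03 and 26.43% of genes in the siCtrl libraries and of 61.4% in both siKDM6B33 libraries. For H3K27me3, siKDM6B33 libraries held 87.3 and 89.8 Mb and siCtrl libraries 53.7 and 54.2 Mb. The H3K27me3 lists of the compound experiment overlapped H3K4me1 much more than those of the knockdown experiment: 50.1 to 66.9% of their length lay inside H3K4me1 islands of the same-numbered library, against 8.89 to 11.4%. The first GSK-J4 H3K27me3 library stood apart, with 16675 islands of 3 kb median width where the other 3 of that experiment had 7174 to 8005 islands of 6.6 to 7.4 kb. The adrenergic neuroblastoma genes MYCN, HAND2, GATA3, ISL1, TBX2, DBH and TH each carried an H3K4me1 island in all 8 H3K4me1 libraries, while of 6 genes of other cell types only INS did. H3K27me3 islands lay on HAND2, TBX2 and INS in all 4 compound H3K27me3 libraries and in no knockdown library. Other markers did not follow this. MYCN and MYH7, a heart gene, carried an H3K27me3 island in all 8 H3K27me3 libraries. DBH and TH carried one in all 4 compound libraries, but also after knockdown, DBH in both siKDM6B33 libraries and TH in replicate 1. Of 10 adrenergic genes listed, 6 to 10 carried one in the compound libraries and 1 to 3 in the knockdown libraries. The files give no read totals, so depth is known only through the genome background solved from the MACS2 values, 0.0298 to 0.107 tags per base.

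Narrow peaks (MACS2) at the 4 genes with the most H3K4me1 coverage are shown as sequence at 6 sites, because the later results refer to them. Of these, 4 were the sites called in the most H3K4me1 libraries at their gene (in a tie at KMT2D) and KMT2B -896 the one called in the most within 1 kb of the KMT2B start. KDM6B +786 was chosen as the KDM6B summit with the most tags in any library. Sites of the other genes, such as KMT2C +122010 and KDM5B +18797 (6 H3K4me1 libraries each), are not shown. Each line gives the hg19 reference around a shared H3K4me1 summit, 5′ to 3′ in the direction of the gene, with every CG dinucleotide in capitals, so that CpG-rich and CpG-poor sites can be told apart.
KDM6B -296 (chr17:7737179-7737299, plus strand): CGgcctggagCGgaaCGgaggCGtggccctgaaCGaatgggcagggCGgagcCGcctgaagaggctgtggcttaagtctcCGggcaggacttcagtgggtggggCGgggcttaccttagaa
KDM6B +786 (chr17:7738261-7738381, plus strand): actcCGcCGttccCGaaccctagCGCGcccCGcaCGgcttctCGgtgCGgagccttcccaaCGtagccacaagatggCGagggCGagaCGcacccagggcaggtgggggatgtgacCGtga
KMT2B -896 (chr19:36207949-36208069, plus strand): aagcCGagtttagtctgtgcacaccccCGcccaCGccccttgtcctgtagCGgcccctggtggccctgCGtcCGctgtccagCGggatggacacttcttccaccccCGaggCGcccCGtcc
KMT2B +22770 (chr19:36231615-36231735, plus strand): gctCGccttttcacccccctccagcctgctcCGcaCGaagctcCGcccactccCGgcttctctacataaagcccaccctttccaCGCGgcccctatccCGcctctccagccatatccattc
KMT2D +4540 (chr12:49449977-49450097, minus strand): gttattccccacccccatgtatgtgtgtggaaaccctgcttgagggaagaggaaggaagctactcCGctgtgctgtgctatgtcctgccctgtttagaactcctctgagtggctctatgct
SETD1A -497 (chr16:30968518-30968614, plus strand): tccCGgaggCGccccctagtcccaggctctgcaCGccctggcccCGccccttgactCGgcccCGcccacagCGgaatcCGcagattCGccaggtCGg
The numbers after the gene names are base pairs from the canonical transcript start. The KDM6B site at -296 lay between DNAH2 and KDM6B and the site at +786 in a KDM6B intron. KMT2B -896 lay between ZBTB32 and KMT2B, KMT2B +22770 beyond the 3′ end of KMT2B in an intron of IGFLR1, KMT2D +4540 in a KMT2D intron, and SETD1A -497 upstream of every annotated SETD1A exon. Their middle 50 bases each occurred 1 time in the genome. CG dinucleotides numbered 9, 14, 10, 8, 1 and 10 in the order shown, so the KMT2D site was the only CpG-poor stretch among them. Over the 2 kb around the start, KMT2C had 276 CG dinucleotides, KDM6A 216 and KMT2B 210, against a median of 98 over all genes, whereas KDM6B had 100 and KDM5A 95. The E-box CACGTG, which reads the same on both strands, was in that window for 2 of the 9 genes, KDM6A and KMT2D, and for 29.5% of all genes.

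KDM6B was the enzyme gene most covered by H3K4me1 in every H3K4me1 group. In the siCtrl libraries its islands covered 67.4 and 69.98% of the gene with flanks, and in the siKDM6B33 libraries 88.7 and 88.7%. The control and knockdown values did not overlap, and the means were 68.7% ± 1.85 (SD, n = 2) and 88.7%. The difference was 19.99 points (exact two-sided permutation p = 0.333, the smallest that 2 against 2 libraries allow, so that no gene could pass 0.05). A gene is called higher (or lower) below only where both treated libraries lay above (or below) both controls. In H3K4me1 coverage after knockdown 49.2% of all genes tested were called higher by this rule. Most of the added coverage was inside the gene: the body was covered over 15.18 and 15.98 kb in the siCtrl libraries and over its whole 20.58 kb in both siKDM6B33 libraries. The 5 kb past the gene were covered over 4.09 kb and 5 kb in turn, and the 5 kb before it over 1.33 and 1.53 kb. In the controls the domain was split by a gap beginning 11865 and 12065 bp after the start, and in the knockdown libraries 1 island of 28.2 or 27.4 kb spanned the locus. The far 5 kb also hold TMEM88, NAA38 and CYB5D1, so coverage there cannot be assigned to KDM6B alone.

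**Figure D1:**
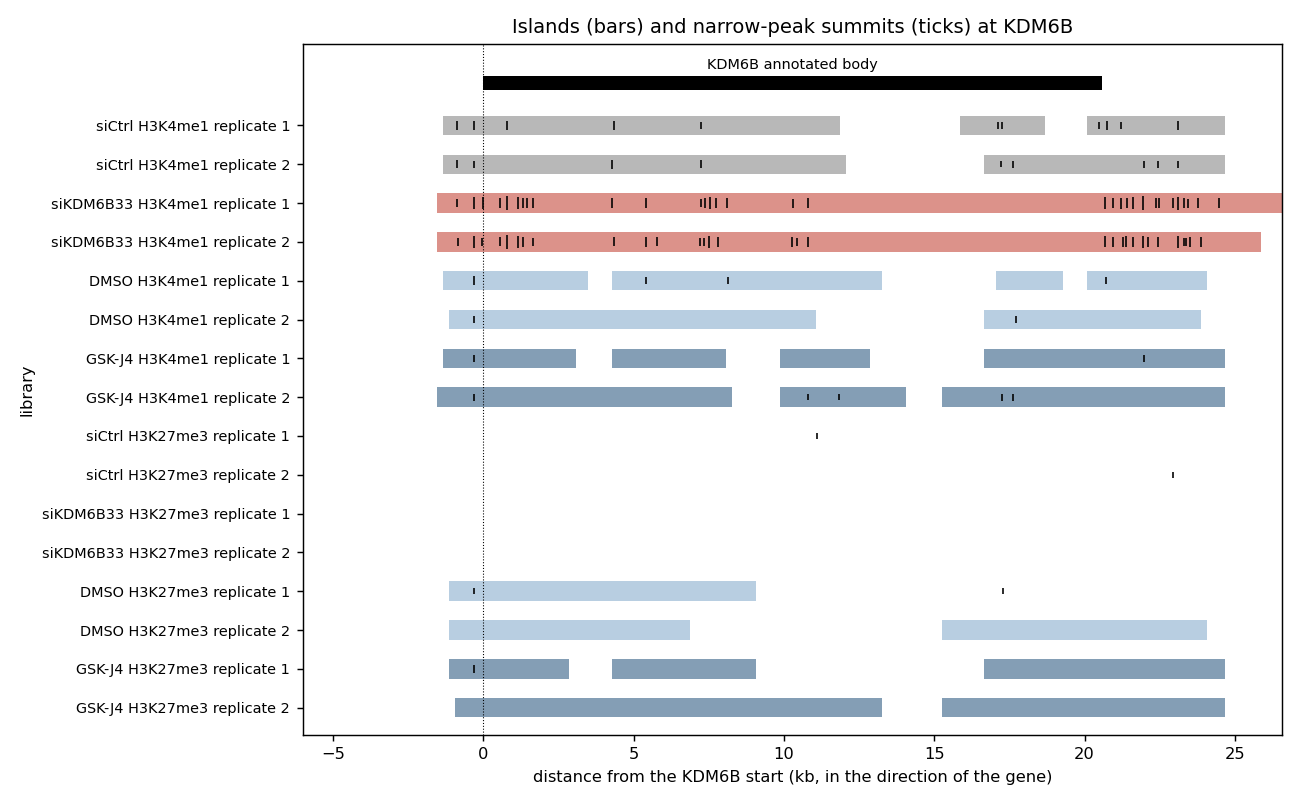
Islands (bars) and narrow-peak summits (black ticks, longer for more tags) at KDM6B in each of the 16 libraries, by distance from the KDM6B start in kb; the black bar on top is the annotated body. Both siKDM6B33 H3K4me1 libraries form a single domain, H3K27me3 islands are seen in all 4 libraries of the compound experiment and in none of the knockdown experiment, and a summit at -296 recurs in the 8 H3K4me1 libraries.

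The narrow peaks of KDM6B did not overlap between arms either, and 38.5% of all genes were called higher in H3K4me1 peak number after knockdown. Its window held 11 and 9 H3K4me1 narrow peaks in the siCtrl libraries and 32 and 31 in the siKDM6B33 libraries. At the upstream site at -296, whose sequence is given above, the summit pileup was 13 and 9 tags in siCtrl and 32 and 33 in siKDM6B33, which is 144 and 106 times the genome background of those libraries against 299 and 314 times. The site at +786, chosen for its tags and so given as a description only, held 46 and 51 tags in the siKDM6B33 libraries, where siCtrl replicate 1 had 14 and siCtrl replicate 2 no summit within 25 bp. The summit at -296 was called in all 8 H3K4me1 libraries within 2 bp, and no other KDM6B site in more than 4. Summit tags are few, so a single library's pileup carries a large counting error.

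In the compound experiment the H3K4me1 of KDM6B overlapped between arms. DMSO libraries had 65.4 and 63.4% of the gene covered, against 62.8 and 76.5% under GSK-J4, a mean difference of 5.23 points that became -1.64 points without GSK-J4 replicate 2, 0.327 points at equal covered length and 12.1 points with islands within 2 kb joined. The site at -296 held 18 and 10 tags with DMSO and 7 and 7 with GSK-J4. Relative to the genome background this was 316 and 207 times against 128 and 125 times, so there the GSK-J4 libraries lay below both DMSO libraries although coverage did not. Narrow peaks numbered 4 and 2 in DMSO against 2 and 5 in GSK-J4 libraries.

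H3K27me3 islands at KDM6B were found in the compound experiment and not in the knockdown experiment. No H3K27me3 island touched KDM6B in any of the 4 knockdown libraries, and its narrow peaks numbered 1 and 1 with siCtrl and 0 and 0 with siKDM6B33. In the compound experiment islands covered 33.4 and 54.9% of it in DMSO and 54.9 and 77.2% in GSK-J4 libraries. The arms touched at 54.9%, and the exact permutation p was 0.667 for a mean difference of 21.91 points. Between same-numbered libraries GSK-J4 was higher in both, so that with the replicate block KDM6B was called higher, but the labels do not tie those libraries to each other. The share of all genes called higher with the block is not given. The difference was 11.1 points without DMSO replicate 1, 32.7 without DMSO replicate 2, 33.03 without GSK-J4 replicate 1 and 10.8 when GSK-J4 replicate 2 was left out. These islands lay 90.5 to 94.0% inside the H3K4me1 islands of the same-numbered library, as did much of the H3K27me3 of that experiment. The H3K27me3 narrow peaks of KDM6B numbered 2 and 0 with DMSO and 1 and 0 under GSK-J4, and so did not follow the coverage. The library with 77.2% coverage held none, and the only ones at the start, of 6 tags in DMSO replicate 1 and 8 in GSK-J4 replicate 1, sat on the H3K4me1 summit at -296. HAND2, TBX2 and INS also had H3K27me3 islands in the compound experiment alone, whereas MYCN and MYH7 had them in every library of both experiments. DBH and TH had them in siKDM6B33 libraries too. The part of this overlap between the marks in the value was not tested. The 5 genes whose coverage over all 16 libraries came nearest to that of KDM6B were GRK2, DIPK1B, EEF1D, INPPL1 and EGLN2, at a mean absolute difference of 4.25 to 5.65 points. They were chosen for this likeness, and their H3K27me3 coverage is a description: none in the knockdown experiment and at least 28.3% in every compound library. Of all genes, 1.43 to 2.98% had H3K4me1 coverage as high as that of KDM6B in a library.

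**Figure D2:**
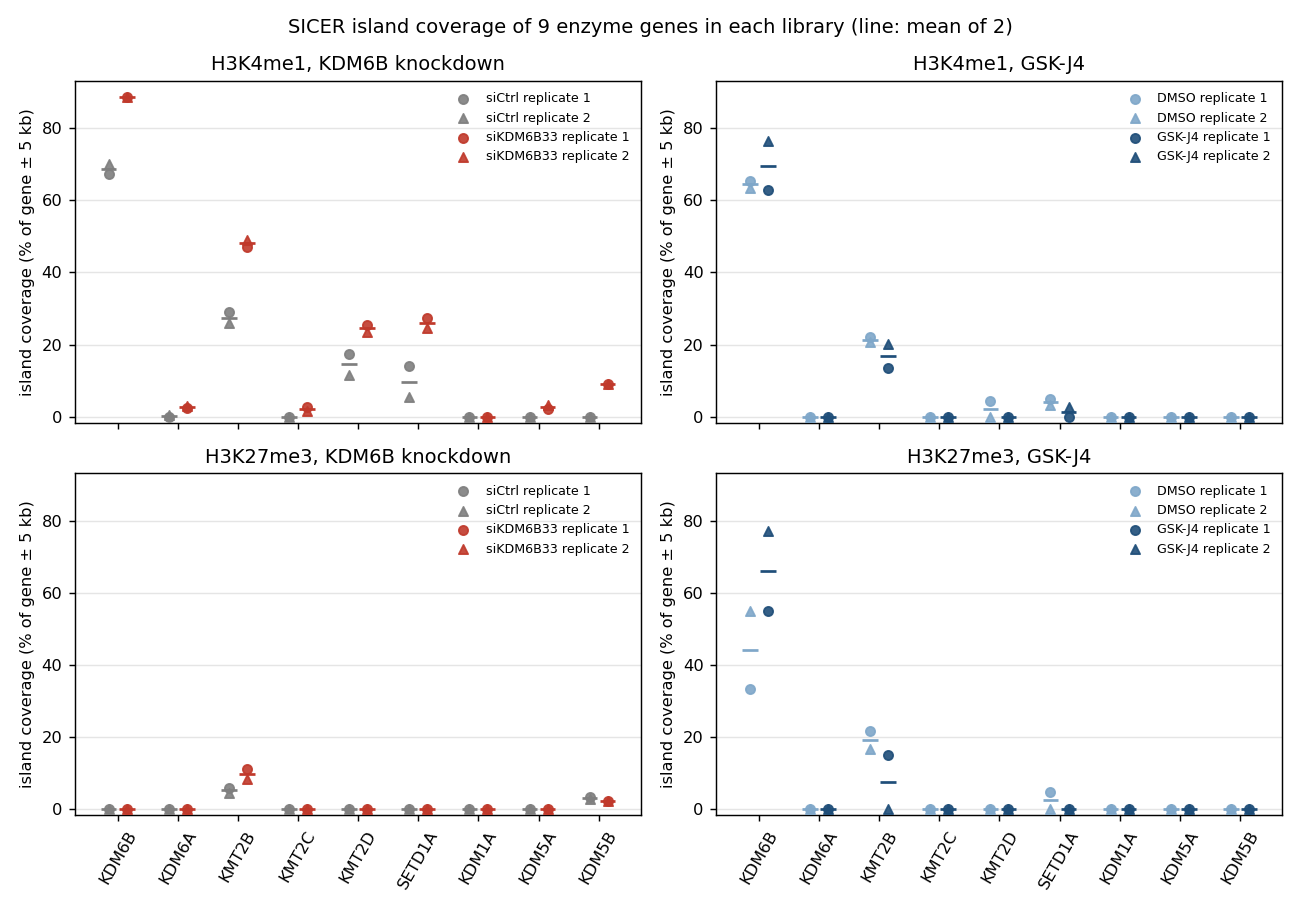
Island coverage (% of the gene body with 5 kb each side, vertical axis) of the 9 enzyme genes in each library, by mark (rows) and experiment (columns); circles are replicate 1, triangles replicate 2 and short lines the mean of 2. KDM6B is highest in each H3K4me1 panel, KMT2B second, and the siKDM6B33 points lie above siCtrl for 8 of the 9 genes in H3K4me1.

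KDM6A, the second H3K27 demethylase and an X-linked gene of 240 kb, was sparsely marked. Its H3K4me1 coverage was 0 and 0.401% with siCtrl and 2.32 and 2.96% with siKDM6B33, and it was 0 in all 4 compound libraries. The knockdown islands included its start, which no siCtrl island touched. Narrow peaks gave no separation, at 12 and 13 with siCtrl and 17 and 8 with siKDM6B33. No H3K27me3 island touched KDM6A in any library.

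Among the methyltransferases KMT2B, a gene of 20.9 kb on chromosome 19, was the most covered by share of its window. Such shares depend on window length, which was 30.9 kb at KMT2B, 37.4 kb at SETD1A, 51.8 kb at KMT2D and 312 kb at KMT2C. H3K4me1 covered 29.1 and 25.9% with siCtrl and 47.2 and 49.1% with siKDM6B33, or 27.5% ± 2.29 and 48.1% ± 1.37 (SD, n = 2), and the groups did not overlap. The coverage lay at the start and past the end and not over the middle of the gene: siKDM6B33 islands reached 4895 and 4695 bp past the start where siCtrl islands reached 1895 and 1095 bp. Narrow peaks were 4 and 7 with siCtrl and 13 and 14 with siKDM6B33. The tallest summit, 22770 bp from the start and inside the neighbour IGFLR1, had 58 and 56 tags in the siKDM6B33 libraries and 21 in siCtrl replicate 2. In siCtrl replicate 1 no summit was called within 25 bp of it, and the tallest, at 22658 bp, had 15 tags. At -896, siCtrl replicate 1 had 10 tags and the siKDM6B33 libraries 33 and 37, and siCtrl replicate 2 had no summit within 25 bp. The far end of the window belongs to IGFLR1 and U2AF1L4 as much as to KMT2B.

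With GSK-J4 the marks at KMT2B lay on the other side of their control. Of the KMT2B window, H3K4me1 covered 22 and 20.7% in DMSO against 13.6 and 20.1% in GSK-J4 libraries, so the lower mean was set mainly by replicate 1 and the difference was -1.29 points when it was left out. With no flank this call was lost, since the body was covered in DMSO replicate 1 alone. H3K27me3 covered 21.8 and 16.6% in DMSO against 14.9 and 0% in GSK-J4 libraries, a difference of -11.73 points that became -4.29 points when GSK-J4 replicate 2 was left out and -19.2 points when replicate 1 was. In the knockdown experiment it was 5.82 and 4.53% with siCtrl and 11 and 8.17% with siKDM6B33. The H3K27me3 islands of the knockdown experiment all lay upstream of the start, and siKDM6B33 replicate 2 had an island of 6.8 kb there that lay over ZBTB32. The knockdown call was lost with no flank, with 10 kb flanks and at equal covered length. Narrow H3K27me3 summits sat on the H3K4me1 sites here: at +22770 a summit of 3 to 7 tags was called in 5 of 8 H3K27me3 libraries, among them both DMSO libraries with 5 and 7 tags.

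**Figure D3:**
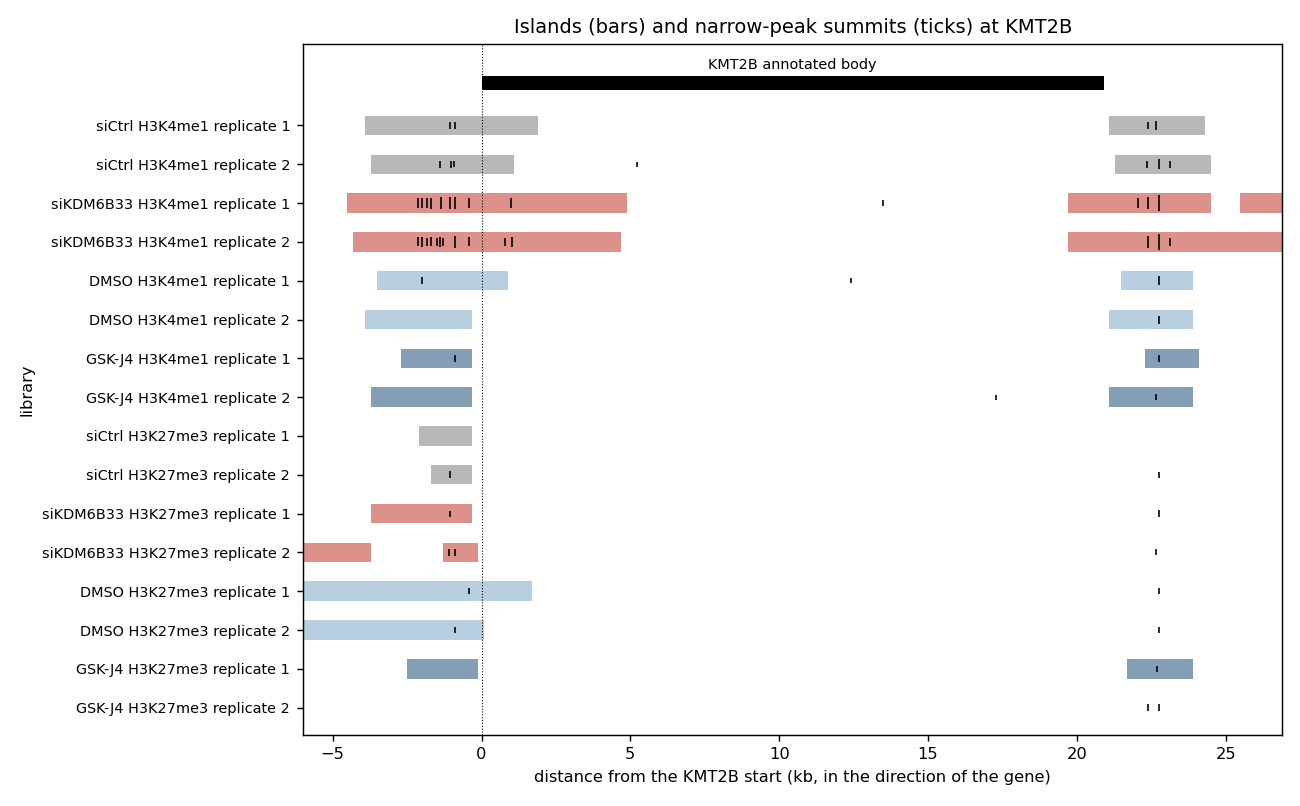
Islands (bars) and narrow-peak summits (black ticks, longer for more tags) at KMT2B in each of the 16 libraries, by distance from the KMT2B start in kb. H3K4me1 sits at both ends of the gene and is widest in the siKDM6B33 libraries, H3K27me3 islands lie upstream of the start in the knockdown experiment and reach the start or the far end in some compound libraries, and a summit at 22770 bp recurs in both marks.

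SETD1A, KMT2D and KMT2C, which encode catalytic subunits of promoter and enhancer H3K4 methyltransferase complexes, each had more H3K4me1 coverage in both siKDM6B33 libraries than in either siCtrl library. The same held for 49.2% of all genes tested. SETD1A was covered over 13.9 and 5.35% with siCtrl and 27.3 and 24.6% with siKDM6B33. KMT2D was covered over 17.4 and 11.6% with siCtrl and 25.5 and 23.5% with siKDM6B33, and KMT2C over 0 and 0% against 2.69 and 1.48%. At equal covered length KMT2C was no longer called higher, while SETD1A and KMT2D still were. In KMT2C, whose body spans 302 kb, the islands lay at the start in both siKDM6B33 libraries, with 1 more of 3 kb inside the gene in replicate 1. Its narrow peaks overlapped between arms, at 11 and 16 with siCtrl and 11 and 8 with siKDM6B33.

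The recurrent sites of SETD1A and KMT2D were as follows. SETD1A -497 had 5 and 8 tags with siCtrl and 20 and 25 with siKDM6B33, or 55.4 and 94.3 against 187 and 238 times background. The intronic KMT2D site at +4540 had 12 tags in siCtrl replicate 1, no summit within 25 bp in siCtrl replicate 2, and 49 and 51 tags with siKDM6B33. It was shown over the equally recurrent KMT2D site at +41139 because it had more tags, so its values are a description. At +41139 the siCtrl libraries had 7 and 5 tags and the siKDM6B33 libraries 13 and 8, at 77.6 and 58.9 against 122 and 76.1 times background. Narrow peaks over the window numbered 3 and 5 against 8 and 7 at SETD1A and 6 and 3 against 16 and 17 at KMT2D, without overlap at either gene. The SETD1A body itself was covered over 1.79 and 0 kb with siCtrl and 5.19 and 4.99 kb with siKDM6B33. Part of the SETD1A window belongs to ORAI3 and HSD3B7, and part of the KMT2D window to PRKAG1 and RHEBL1.

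In the compound experiment these 3 genes were nearly free of islands. H3K4me1 covered 4.78 and 3.21% of SETD1A in DMSO against 0 and 2.68% in GSK-J4 libraries. These islands all lay inside the neighbour ORAI3, none touched the SETD1A body, and the call of lower coverage was lost with no flank. At KMT2D only DMSO replicate 1 had an island, 4.25%, and at KMT2C no library did. H3K27me3 reached 1 of the 3 genes in 1 library, in the SETD1A window of DMSO replicate 1 with 4.78%. The part of that island within the window again lay inside ORAI3. Yet SETD1A -497 was a narrow H3K27me3 summit of 6 and 6 tags in both DMSO libraries and of none with GSK-J4, at the position of the H3K4me1 summit of 8 and 7 tags with DMSO. The H3K4me1 summit itself was not called in GSK-J4 replicate 1 and had 4 tags in replicate 2, at 71.5 times background against 141 and 145 times with DMSO.

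The H3K4 demethylase genes had no H3K4me1 island in the siCtrl, DMSO or GSK-J4 libraries. KDM1A (LSD1) had no island of either mark in any of the 16 libraries, and its H3K4me1 narrow peaks numbered 4 and 2 with siCtrl and 5 and 4 with siKDM6B33. KDM5A was free of H3K4me1 islands in all libraries but the siKDM6B33 pair, at 2.18 and 3.19%. KDM5B was likewise covered only there, at 8.94 and 9.15%, with narrow peaks of 4 and 3 against 8 and 7. H3K27me3 islands touched KDM5B in the knockdown libraries and in none of the compound libraries, at 3.21 and 2.78% with siCtrl and 2.34 and 2.34% with siKDM6B33, a difference of -0.65 points in islands that lay upstream of the gene body. The start of KDM5A is shared with CCDC77 on the other strand.

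**Figure D4:**
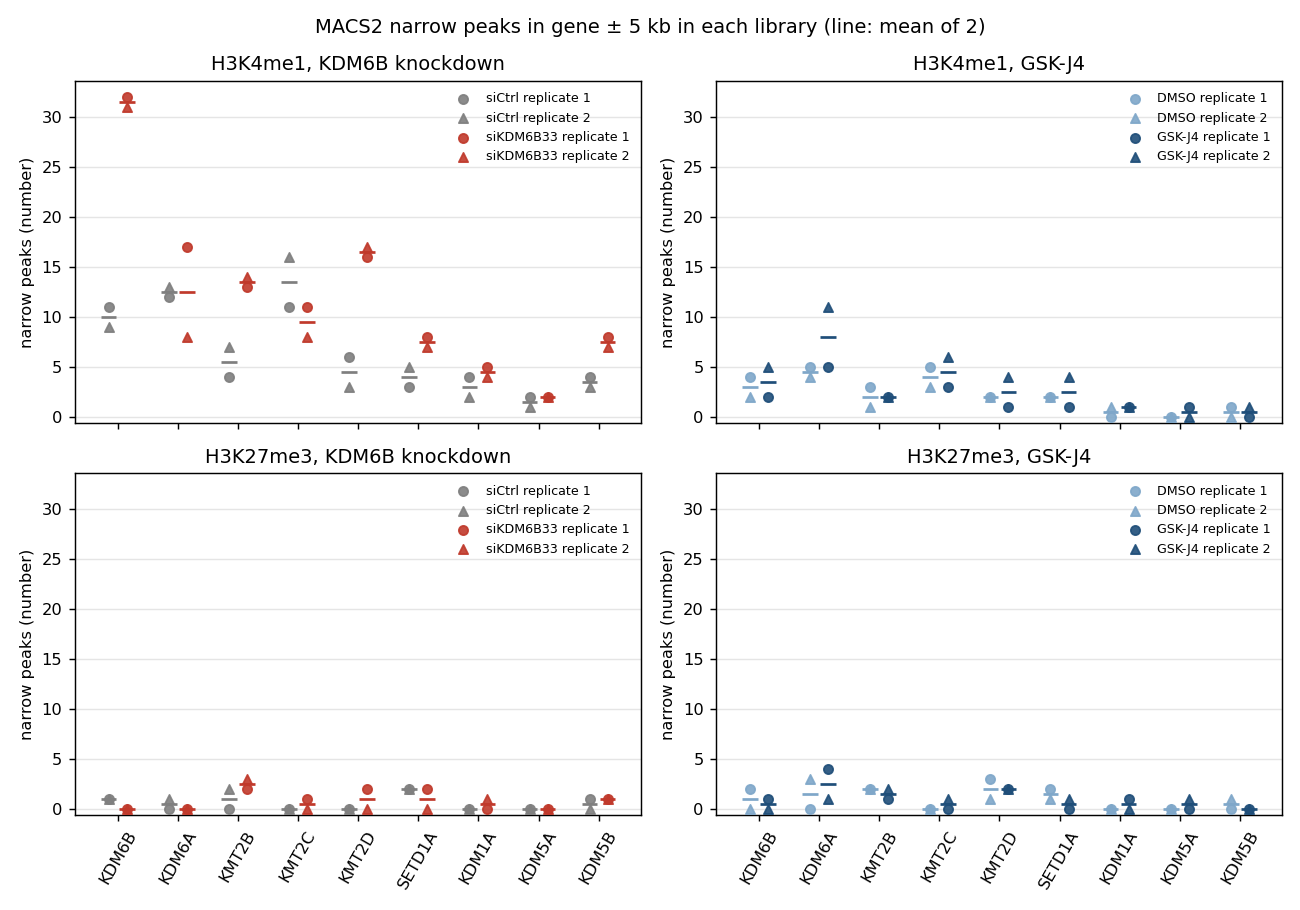
Number of MACS2 narrow peaks in the window of each enzyme gene (body with 5 kb each side, vertical axis) in each library, by mark (rows) and experiment (columns); symbols as replicate 1 (circle), replicate 2 (triangle) and mean of 2 (line). The largest separation is at KDM6B in H3K4me1, 11 and 9 against 32 and 31, while the H3K27me3 panels stay at 4 or fewer peaks.

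Counted together, 8 of the 9 genes were called higher in H3K4me1 coverage after knockdown, all but KDM1A, and none lower. Of all genes tested, 49.2% were called higher and 10.3% lower, so the direction was that of the libraries at large. With every list shortened to the same covered length, 6 of the 9 were called higher (KMT2C and KDM5A no longer were) against 41.1% of all genes. The median difference was 9.04 points over the 9 genes and 1.61 points over all genes, and with no flank 5.14 and 0.749 points. More narrow peaks were called at 5 genes (KDM6B, KMT2B, KMT2D, SETD1A and KDM5B) against 38.5% of all genes, and fewer at none against 11.8%. An H3K4me1 island touched the start of 4 and 2 of the 9 genes with siCtrl and of 8 and 8 with siKDM6B33, against 26.03 and 26.43% and then 61.4% in both libraries over all genes. Narrow peaks were at most starts already, so that none of the 9 gained a start peak in both siKDM6B33 libraries with neither control (11.9% of all genes) and none lost it (0.726%). Counting only peaks with a −log10 q of at least 5, 4 genes gained a start peak (KDM6A, KMT2C, KMT2D and KDM5A) against 27.3% of all genes, and all 9 had more narrow peaks against 49.4%.

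For H3K27me3 after knockdown, coverage was called higher at KMT2B (10.7% of all genes) and lower at KDM5B (3.44%). Narrow peaks were called more numerous at no member (10.7%) and fewer at KDM6B (4.14%), on counts of 1 and 0. With the replicate block they were called more numerous at KMT2B, a call for which no share of all genes is given. A start peak was gained at KMT2B (2.64%) and lost at SETD1A (0.941%), and these single genes rest on summits of 2 to 7 tags. With GSK-J4, H3K27me3 coverage was called higher at no member (5.86%) and lower at KMT2B (4.3%). More narrow peaks were called at none (16.3%), fewer at none (2.43%), a start peak was gained at none (3.22%) and lost at KMT2B and SETD1A (1.14%). In H3K4me1 with GSK-J4, coverage was called higher at none (10.9%) and lower at KMT2B and at the ORAI3 end of the SETD1A window (8.48%), narrow peaks were more numerous at none (11.5%) and fewer at none (7.13%), and a start peak was gained at none (1.78%) and lost at KMT2C (3.09%). The median difference over the 9 genes was 0 in these 3 comparisons. The calls in these 3 comparisons were thus of 0 to 2 genes each.

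**Figure D5:**
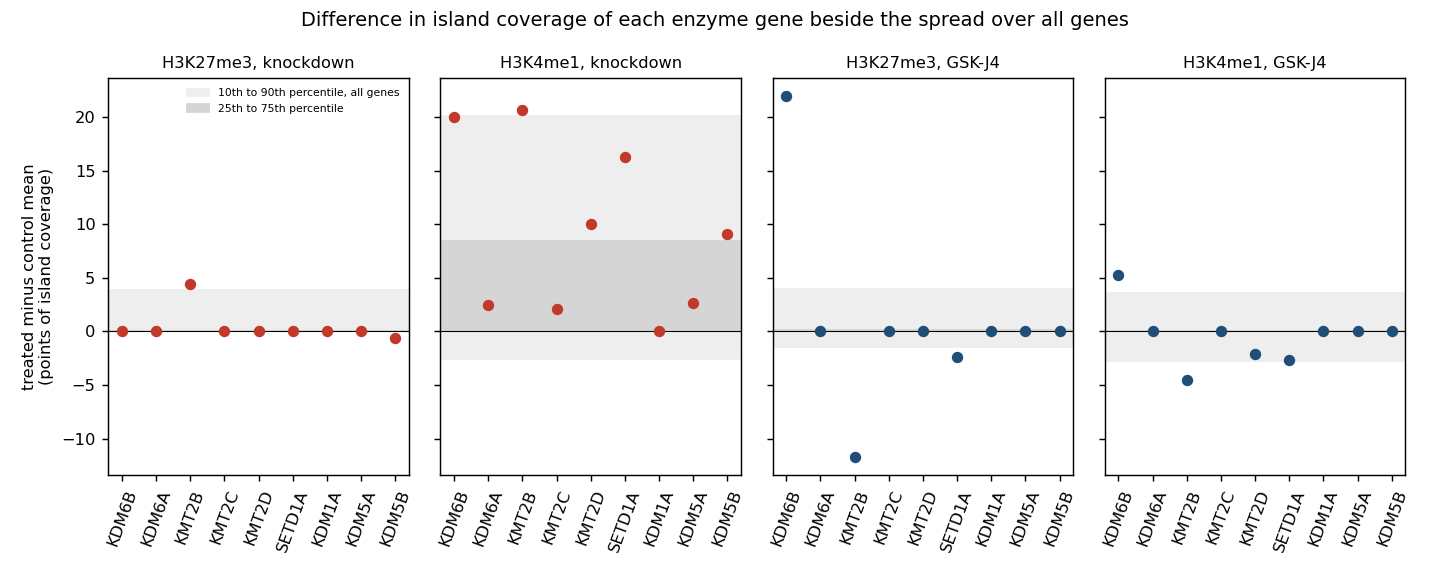
Treated minus control mean of island coverage (percentage points, vertical axis) of each enzyme gene in the 4 comparisons, with grey bands for the 10th to 90th and the 25th to 75th percentile over all genes tested. In H3K4me1 after knockdown KMT2B (20.65) lies above and KDM6B (19.99) and SETD1A (16.29) below the 90th percentile of all genes, 20.12, and KDM1A lies at 0.

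The other genes of the pathway were taken from a list of 26 further enzymes and complex subunits, of which 24 were analysed. In H3K4me1 after knockdown 17 of them were called higher in coverage and none lower, against 49.2 and 10.3% of all genes. Their median difference was 5.45 points, and that of all genes 1.61 points. Among the subunits that all COMPASS-type methyltransferases share, WDR5 went from 0 and 0% with siCtrl to 13.9 and 18.5% with siKDM6B33, and RBBP5, ASH2L and DPY30 were called higher too. Among the partners of single complexes, CXXC1, the CpG-binding subunit of the SETD1 complexes, had 0 and 0% against 43.9 and 41.3%, and MEN1, a subunit of the KMT2A and KMT2B complexes, 14.6 and 31.5% against 61.8 and 51.7%. These were the largest differences among the partners. NCOA6 had 5.60 and 5.46% against 7.37 and 9.96%, and PAGR1 overlapped between arms, at 58.3 and 64.4% against 64.4 and 80.4%. EZH1 and EZH2, the H3K27 methyltransferases, overlapped between arms, at 4.75 and 4.02% against 3.65 and 4.38% and at 4.36 and 7.58% against 8.27 and 7.12%. In the KDM1A complex HDAC1 and HDAC2 were called higher, from no coverage, while RCOR1 and PHF21A overlapped. With GSK-J4, 3 of the 24 were called higher in H3K4me1 coverage (SETD7, ASH2L and NCOA6) and none lower, against 10.9 and 8.48% of all genes. H3K4me1 narrow peaks were more numerous at SETD7, KDM1B and PHF21A (11.5% of all genes) and fewer at SETD1B (7.13%). An H3K4me1 start peak was lost at DPY30, PAXIP1, NCOA6 and HDAC2 (3.09%) and gained at none (1.78%). In H3K27me3 with GSK-J4, 3 were called higher in coverage (SETD1B, KMT2E and SMYD3; 5.86% of all genes) and none lower (4.3%). More H3K27me3 narrow peaks were called at 8 of the 24 (KMT2E, SMYD3, ASH1L, RBBP5, ASH2L, DPY30, PAXIP1 and PHF21A; 16.3%) and fewer at SETD7 (2.43%). After knockdown no gene of the list was called higher in H3K27me3 coverage (10.7%), and NCOA6 was called lower (3.44%).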

How the data were processed

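H3K27me3 and H3K4me1 CUT&Tag libraries of BE2C cells, 2 per group, were used as 32 deposited lists. The authors aligned reads to hg19 with BWA (0.7.12), removed duplicates with Picard (1.65), and called islands with SICER (1.1) and narrow peaks with MACS2, for which the submitters' processing notes give 2.1.1 and the study's methods another version. The island lists hold a deposited SICER score per island, a number with no fixed range, and the narrow-peak lists a deposited fold enrichment (ratio) and deposited −log10 p and q values. No list gives reads per region, so the count model of the study could not be refitted and read depth is unknown.

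From these, island coverage (percent of a gene body with 5 kb each side) and narrow-peak numbers were computed with Python 3.11.15, NumPy 2.4.6, pandas 2.3.3 and SciPy 1.17.1, using GENCODE 44 lifted to hg19 and the canonical transcript start. Summit tags and background were solved from fold and −log10 p, in which MACS2 adds 1 to both terms. Scripts were tested on simulated data. Groups came from the labels, and p-values are exact two-sided permutation tests over 2 against 2 libraries. The labels do not say whether replicates were separate cultures. The members and lists were chosen with earlier results of these data known. Genes wholly inside a stretch of 100 kb or more without any entry were left out after the lists were seen. The genes named were the 10 enzymes, a fixed pathway list, the 5 genes nearest KDM6B in coverage, genes in the same windows and the marker genes, some of which are not reported here. Site sequences were read from the hg19 reference at H3K4me1 summits shared within 25 bp, 60 bases each side without annotated untranslated bases. Alternatives were equal covered length, other flanks, joined islands, stricter q values, other starts, the replicate block and leaving out each replicate. The shares and medians of all genes at the stricter q and with no flank were added after seeing the data.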

Additional observations from a re-analysis of the deposited data

Results flagged for a closer look

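Differences in island coverage that had opposite signs in the knockdown and the compound experiment, with every treated library on one side of its controls in each, were seen for the following 3 values. For KMT2B in H3K27me3 the knockdown difference was 4.41 points and the compound difference -11.73 points, 16.1 points apart. The latter was -4.29 points without GSK-J4 replicate 2 and -19.2 points without GSK-J4 replicate 1. For KMT2B in H3K4me1 they were 20.65 and -4.53 points, 25.2 points apart, and the latter was -1.29 points without GSK-J4 replicate 1 and -7.77 points without GSK-J4 replicate 2. For SETD1A in H3K4me1 they were 16.29 and -2.66 points, 18.9 points apart, and the latter was -1.32 points without GSK-J4 replicate 1 and -4.00 points without GSK-J4 replicate 2. The compound islands of SETD1A all lay inside the neighbour ORAI3, and with no flank neither SETD1A nor KMT2B was called lower in H3K4me1 with GSK-J4. The higher H3K27me3 at KMT2B after knockdown was also lost with no flank. The DMSO H3K27me3 coverage of KMT2B lay mostly upstream of its start, largely over ZBTB32. The difference between the experiments was not tested. Groups that did not overlap in the same direction were found for 10.7 and 4.3% of all genes in H3K27me3 (higher after knockdown, lower with GSK-J4) and for 49.2 and 8.48% in H3K4me1. Each of these shares is for 1 experiment alone. The share of all genes that met both conditions together is not given, so whether the 3 values are unusual cannot be told.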

How the results depend on the processing

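Counts are of the 9 genes unless said otherwise. Where the share of all genes under an alternative is not stated, its counts cannot be read against a background. In H3K4me1 after knockdown, requiring a −log10 q of at least 5 gave 9 genes with more narrow peaks in place of 5, and 4 with a gained start peak in place of 0. The KDM6B difference of 19.99 points was 24.3 with no flank, 16.8 with 10 kb flanks and 17.7 with islands within 2 kb joined, and 18.7 to 21.3 when a replicate was left out. The median difference of 9.04 points was 5.14 with no flank, 8.17 with 10 kb flanks, and 7.14 to 9.07 without a replicate. In H3K27me3 after knockdown, the 1 gene of higher coverage became 0 at equal covered length, with no flank and with 10 kb flanks, and the 1 of lower coverage 2 at equal covered length and 0 with no flank. The 1 gene with fewer narrow peaks became 0 at a −log10 q of at least 2 or 5, the 1 gained start 0 at 5 and with any annotated start, and the 1 lost start 0 at 5. In H3K27me3 with GSK-J4, joined islands gave 1 gene of higher coverage in place of 0, and a −log10 q of at least 5 gave 1 with fewer peaks in place of 0 and 1 lost start in place of 2. In H3K4me1 with GSK-J4, the 2 genes of lower coverage became 1 at equal covered length, 0 with no flank and 1 with 10 kb flanks, joined islands gave 1 of higher coverage in place of 0, and a −log10 q of at least 5 gave 1 with fewer peaks in place of 0 and 2 lost starts in place of 1.

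The labels share replicate numbers between groups without tying the samples. With the replicate block, 1 gene (KDM6B) was higher in H3K27me3 coverage with GSK-J4 in place of 0. For narrow peaks, where the block was added after seeing the data, 1 gene (KMT2B) had more H3K27me3 peaks after knockdown in place of 0 and 6 genes more H3K4me1 peaks after knockdown in place of 5. No other count of the 9 genes changed with the block. The shares of all genes called with the block, or with a replicate left out, are not given. Leaving out 1 replicate loosens the call, since fewer libraries must separate. The ranges were then 1 to 2 (more peaks), 1 to 2 (fewer peaks) and 1 to 2 (gained starts) in H3K27me3 after knockdown, and 5 to 7, 0 to 2 and 0 to 2 in H3K4me1 after knockdown. In H3K27me3 with GSK-J4 they were 0 to 1 (higher coverage), 1 to 2 (lower coverage), 1 to 2 (more peaks), 0 to 3 (fewer peaks) and 0 to 2 (gained starts). In H3K4me1 with GSK-J4 they were 0 to 1, 2 to 3, 1 to 5, 0 to 2 and 0 to 2 in the same order, with 1 to 2 lost starts, and the KDM6B difference of 5.23 points ran from -1.64 (without GSK-J4 replicate 2) to 12.1. The causes were not tested. Keeping the genes of the empty stretches, an alternative chosen after seeing the data, put 46.2% of all genes higher in H3K4me1 after knockdown in place of 49.2%. Read depth is unknown and summits hold few tags, so small differences were not detectable.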
